A study of Mus musculus with 49 samples.

Results

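Glycolysis enzyme genes were followed across single cortical neurons of the mouse. Of 10 genes that encode enzymes of the lower part of glycolysis or lactate dehydrogenase (Aldoa, Gapdh, Tpi1, Pgk1, Pgam1, Eno1, Eno2, Pkm, Ldha and Ldhb), 7 are among the 9020 genes of the expression table, namely Aldoa, Tpi1, Eno1, Eno2, Pkm, Ldha and Ldhb. The rule names the genes and sets no threshold on a measured value. Gapdh, Pgk1 and Pgam1 were not analysed here.

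The neurons were wild-type (WT) cells of CD1 mice, labelled at E13.5 with FlashTag (FT), a dye given into the ventricles that marks dividing apical progenitors and their newborn daughters. They were collected at P7 from slices of the primary somatosensory cortex, where bright FT cells were picked and their content was drawn into a patch pipette (Patchseq). All 49 cells belong to 1 condition. The labels give the library pool and an IL number and name no animal, so the cells count as 1 sample and differences between cells were not tested. The paper reports several independent experiments, which the labels do not name. It also states that cells of different collection days were placed in the same library, so a pool is not a collection day. Values are RPM, read counts rescaled so that each neuron has an equal total. Intervals are 95% intervals by the exact Clopper-Pearson method, for counting error alone. An interval on a share of reads takes each read as an independent draw. Since copies of 1 molecule were not told apart, such an interval can be too narrow. An interval on a share of cells takes the cells as independent draws, which is not known here, and leaves out differences between animals.

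Glycolysis splits glucose into pyruvate and yields ATP without oxygen, and lactate dehydrogenase then converts pyruvate and lactate into each other. Several steps can be run by more than one isoform, and the mix of isoforms differs between tissues. In the brain, Eno2 encodes gamma-enolase, known as neuron-specific enolase, while Eno1 encodes alpha-enolase, which is found in most cell types and precedes Eno2 in developing neurons. Ldha encodes the muscle-type and Ldhb the heart-type subunit of lactate dehydrogenase, which combine into tetramers, and tetramers rich in the heart-type subunit are classically linked to lactate use.

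The promoters of both isoform pairs are shown because the enolase and the lactate dehydrogenase step are each shared by genes with promoters of their own. Each sequence is the 250 bases before a transcription start of RefSeq on GRCm38.p6, written 5′ to 3′ on the strand of the gene. Where a gene has several starts, the window whose start lies nearest to that of a principal transcript was taken. The distance was 244 bases for Eno1, 35 for Ldha and 0 for Ldhb and Eno2. Capitals mark the letters ACGTG on either strand (read as CACGT on the other strand), which are the core of the hypoxia response element and also lie within the E-box CACGTG. The windows are chr7:46845554-46845803 (plus strand) for Ldha, chr6:142507958-142508207 (minus strand) for Ldhb, chr4:150236458-150236707 (plus strand) for Eno1 and chr6:124769674-124769923 (minus strand) for Eno2.
Ldha: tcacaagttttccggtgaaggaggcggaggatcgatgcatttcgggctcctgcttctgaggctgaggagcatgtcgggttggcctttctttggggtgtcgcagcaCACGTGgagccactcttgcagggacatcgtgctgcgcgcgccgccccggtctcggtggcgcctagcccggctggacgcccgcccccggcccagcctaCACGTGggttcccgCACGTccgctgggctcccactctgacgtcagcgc
Ldhb: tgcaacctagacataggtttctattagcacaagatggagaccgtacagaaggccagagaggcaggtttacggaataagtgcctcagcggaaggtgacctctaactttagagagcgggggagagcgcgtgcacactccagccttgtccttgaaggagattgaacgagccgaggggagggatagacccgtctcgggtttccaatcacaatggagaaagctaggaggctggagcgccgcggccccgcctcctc
Eno1: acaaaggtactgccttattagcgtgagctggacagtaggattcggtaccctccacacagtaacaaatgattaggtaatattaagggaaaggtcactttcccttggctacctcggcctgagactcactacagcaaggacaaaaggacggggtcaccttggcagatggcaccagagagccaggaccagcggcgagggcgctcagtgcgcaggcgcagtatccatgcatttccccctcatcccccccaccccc
Eno2: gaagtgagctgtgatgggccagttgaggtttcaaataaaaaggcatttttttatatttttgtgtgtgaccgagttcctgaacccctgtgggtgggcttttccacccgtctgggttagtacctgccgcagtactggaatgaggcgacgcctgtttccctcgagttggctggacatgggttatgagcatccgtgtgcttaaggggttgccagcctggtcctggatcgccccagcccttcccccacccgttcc

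The Ldha window holds these letters at 3 places, which begin 145, 48 and 34 bases before the start, and the first and second of them are the full E-box. The Ldhb, Eno1 and Eno2 windows hold none. Of the 2 Ldha windows only 1 holds the letters, and of the 3 Eno1 windows 0 do. Counted over all RefSeq starts, 4 of the 13 windows of the members hold the letters (30.8%), against 22.1% of 8938 windows of listed genes and 16.6% of all 32851 windows. A match is a description of these letters and not of a bound factor.

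The genes lie on 4 autosomes of GRCm38 (GENCODE M21). Eno2 (chr6:124760053-124769673) and Tpi1 (chr6:124810586-124814296) are near neighbours on the minus strand of chromosome 6, which also carries Ldhb (chr6:142490249-142507957, minus strand). Aldoa (chr7:126795234-126800751, minus strand) and Ldha (chr7:46841475-46855627, plus strand) lie on chromosome 7, Eno1 (chr4:150236721-150248879, plus strand) on chromosome 4 and Pkm (chr9:59656368-59679375, plus strand) on chromosome 9. All 7 are protein-coding genes. The annotation has 2 gene entries under the name Aldoa, and the longer is given. Aldoa overlaps Fam57b and Tpi1 overlaps Spsb2 on the opposite strand, and Pkm overlaps the unclassified transcript Gm49759 on its own strand. Since the sources used here do not say whether strand entered the counting, reads of these neighbours cannot be told apart from those of the members. Of the 100-base stretches in the last 500 bases of the transcript, 48.4% are also found in the Eno1 copy Eno1b for Eno1 and 12% in Gm5514 for Ldhb, while the share is 0% for the other 5 members. The levels of Eno1 and Ldhb are therefore uncertain, as reads shared with a copy may have been dropped or split.

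The cells were sequenced in 5 library pools of 9 to 12 cells, with 209850 to 35342325 reads per cell (median 1240101), so that 1 read stands for 0.0283 to 4.77 RPM. Hemoglobin genes took a median of 0.0894% of the reads of a cell but at least 1% in 8 cells and 68.8% in the cell IL01_Pool3. At least 2 of the 4 neuron markers (Snap25, Syt1, Stmn2, Map2) reached 10 RPM in 49 of 49 cells. At least 2 markers also reached 10 RPM in 40 cells for astrocytes, in 15 for the oligodendrocyte lineage and in 9 for microglia, and excitatory and inhibitory neuron markers did so in 35 and 17 cells, and how much of this RNA came from the patched neuron itself was not tested.

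The 7 genes together were expressed in every neuron and made up less than 1% of its reads. Their summed level ranged from 638 RPM in IL04_Pool5 to 4672 RPM in IL03_Pool3, with a median of 2994 RPM (0.299% of the reads). Only IL04_Pool5 and IL12_Pool1 (661 RPM) fell below 700 RPM. The median of the summed level was 3407 RPM in pool 1, 2948 RPM in pool 2, 3809 RPM in pool 3, 3155 RPM in pool 4 and 1782 RPM in pool 5, the pool with the fewest reads per cell. The summed level went with log10 reads per cell (Spearman's rho 0.48, Pearson's r 0.46 and 0.42 without the 2 cells farthest from the median, 49 cells), with a rho from −0.13 to 0.67 within the pools. It also moved with the neuron marker list (rho 0.37) and against the hemoglobin (rho −0.31), mitochondrial (rho −0.34) and microglia reads (rho −0.31), and the part of these measures in the level was not tested.

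Aldoa, which encodes the aldolase that splits fructose bisphosphate, had the highest median RPM over all cells, though not in every pool. Its level was lowest at 29.8 RPM in IL05_Pool5, had a median of 773 RPM and was highest at 2727 RPM in IL02_Pool1. Its quartiles, 509 and 1024 RPM, differed by a factor of 2.01, and 46 of 49 cells held at least 100 RPM. Aldoa was the highest of the 7 members in 30 cells. In pool 1, however, its median (682 RPM) was below that of Tpi1 (792 RPM).

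Tpi1 encodes triosephosphate isomerase, which converts the products of the split into each other. Its level ranged from 11.9 RPM in IL01_Pool3, the cell dominated by hemoglobin reads, to 1338 RPM in IL09_Pool1, with a median of 425 RPM. Its rho with log10 reads per cell was 0.585 (0.17 to 0.68 within the pools), the highest of the 7 members, and its median was 792 RPM in pool 1, the deepest pool, against 297 to 557 RPM in the other pools.

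Pkm encodes the muscle-type pyruvate kinase, which makes pyruvate and ATP in the last step of glycolysis, and its splice forms are not separated in these values. Its level ranged from 7.81 RPM in IL04_Pool2 to 917 RPM in IL04_Pool3, with a median of 422 RPM. Its quartiles, 294 and 604 RPM, differed by a factor of 2.05, and 43 cells held at least 100 RPM. The few low cells included IL04_Pool2 and IL09_Pool4 (9.26 RPM), both under 10 RPM.

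Among the isoforms of enolase and lactate dehydrogenase, Eno1, Eno2 and Ldhb had wider quartiles than the other members, and Ldha did not stand out. Ldha had a median of 466 RPM, from 15.5 RPM in IL07_Pool2 to 2280 RPM in IL09_Pool4. Ldhb had a median of 231 RPM, from 3.09 RPM in IL09_Pool4 to 952 RPM in IL03_Pool1. Eno2 had a median of 213 RPM, from 0 in IL04_Pool4 to 761 RPM in IL07_Pool2. Eno1 had a median of 76.6 RPM, from 0 in IL08_Pool5 to 338 RPM in IL04_Pool4. The quartiles differed by a factor of 2.46 for Tpi1, 2.51 for Ldha, 3.34 for Eno2, 4.31 for Ldhb and 4.32 for Eno1. Eno1 was the lowest of the 7 members in 33 cells and the highest in 0.

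**Figure D1:**
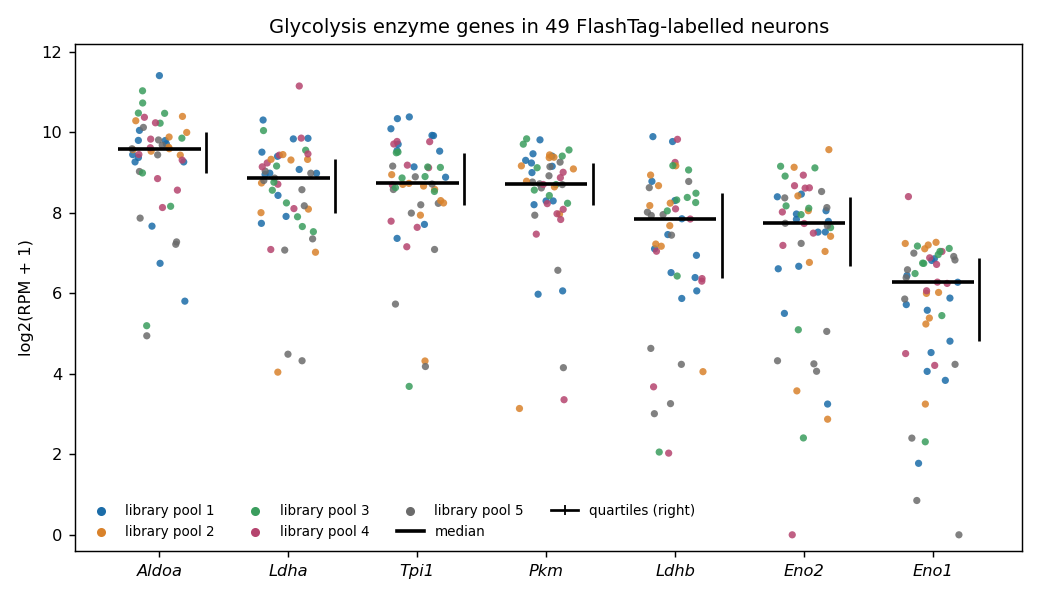
Level of each member in each of the 49 cells as log2(RPM + 1), coloured by library pool, with the median as a horizontal and the quartiles as a vertical line. The median falls from 773 RPM for Aldoa to 76.6 RPM for Eno1. The ranges of the 5 pools overlap, but pool medians differ, for Tpi1 from 297 RPM in pool 5 to 792 RPM in pool 1.

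With a threshold of 1 read, 5 of the 7 members (Aldoa, Ldha, Tpi1, Pkm and Ldhb) were found in all 49 cells, while 8.10% of the 9020 listed genes were. Eno1 and Eno2 were each found in 48 cells (98.0%, interval 89.1% to 99.9%). The cell without Eno1 reads, IL08_Pool5, was the shallowest (209850 reads), so that 0 reads allow up to 14.3 RPM, and it held 4 reads of Eno2. Such a limit, here and below, is the level of 3 reads. It takes each read as an independent draw and does not cover RNA lost before sequencing. The cell without Eno2 reads, IL04_Pool4, had 254182 reads, which allows up to 11.8 RPM, and it held 86 reads of Eno1, the highest Eno1 level of all cells. At 10 reads only Aldoa remained in every cell, and at 10 RPM only Aldoa, Ldha and Tpi1 did. The median level was at least 100 RPM for 6 of the 7 members, with Eno1 as the exception, against 13.7% of all listed genes. Since each listed gene reached 100 RPM in at least 2 cells, genes expressed at a lower level stand outside this comparison.

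The levels of the members also varied less between cells than those of most listed genes. The SD of log2(RPM + 1) over the cells was 1.39 for Aldoa, 1.40 for Ldha, 1.46 for Tpi1, 1.5 for Pkm, 1.80 for Eno1, 2.0 for Ldhb and 2.07 for Eno2, where the median over the 9020 genes was 2.63. Between 1.27% (Aldoa) and 14.1% (Eno2) of the listed genes had a lower SD. The SD also depends on the level, and the median level over all listed genes was only 3.87 RPM.

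By median RPM, the order was Aldoa, Ldha, Tpi1, Pkm, Ldhb, Eno2 and Eno1. Aldoa exceeded Ldha in 38 of 49 cells, Pkm exceeded Ldhb in 37 and Eno2 exceeded Eno1 in 40. The other neighbours were not separated, as Ldha exceeded Tpi1 in 27 cells, Tpi1 exceeded Pkm in 25 and Ldhb exceeded Eno2 in 23. The kit reads the 3′ end of each transcript, so that reads need not scale with its length. When the median was divided by exonic length, it was 265 RPM per kb for Aldoa, 154 for Tpi1, 147 for Ldhb, 141 for Ldha, 84.4 for Pkm, 45.3 for Eno2 and 14.2 for Eno1. On this scale Ldhb moved above Ldha, while Aldoa stayed highest and Eno2 and Eno1 stayed lowest.

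The balance of the enolase pair was on the side of the neuronal isoform in most cells, yet it covered the full range. In the 46 cells with at least 20 reads on the pair, Eno2 made up a median of 76.4% of the reads of Eno1 and Eno2 together (quartiles 59.6% and 86.6%, SD 27.3), from 0% in IL04_Pool4 to 99.3% in IL01_Pool3. Eno2 had more reads than Eno1 in 37 of these cells (80.4%, interval 66.1% to 90.6%). The interval of the share lay wholly above 50% in 36 cells and wholly below it in 9, and it spanned 50% in 1 cell. These counts of cells rest on reads, not molecules, here and for the lactate dehydrogenase pair, so fewer cells may be clear of 50%. The pool medians ran from 66.7% to 78.1%, and in each pool most cells had more Eno2, with 10 of 11 cells in pool 1 and 5 of 9 in pool 2 as the highest and lowest counts. When the reads of Eno1 were divided by the share of its end that no other gene holds, the median was 62.6% and 32 cells had more Eno2.

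The 9 cells with less Eno2 than Eno1 came from all 5 pools. IL04_Pool4 had 0 reads of Eno2 and 86 of Eno1 (0%, interval 0% to 4.20%). IL07_Pool3 had 5 and 124 (3.88%, interval 1.27% to 8.81%), and IL02_Pool2 had 4 and 95 (4.04%, interval 1.11% to 10%). The shares of the other 6 cells were 14.6% in IL04_Pool2, 17.9% in IL03_Pool5, 20.2% in IL08_Pool3, 35.2% in IL05_Pool1, 41.4% in IL08_Pool2 and 47.2% in IL03_Pool2. At least 2 neuron markers reached 10 RPM in each of these 9 cells, with a summed level of the list of 2312 to 8311 RPM. Stmn2 was the highest of the 4 markers in all of them but IL07_Pool3. That is not particular to these cells, as Stmn2 also had the highest median of the 4 over all cells (3587 RPM). Snap25, which encodes a protein of synaptic vesicle release, lay below its median over all cells (1101 RPM) in 8 of the 9, and Syt1, which encodes a calcium sensor of release, lay below its median (707 RPM) in 6. Stmn2, a microtubule regulator of growing neurites, lay below its median in 4 cells and Map2 in 3. The 2 lowest Syt1 levels of all cells were those of IL02_Pool2 (20.6 RPM) and IL04_Pool4 (35.4 RPM), where Snap25 was at 60.1 and 74.7 RPM. Low Snap25 was also found in cells with more Eno2. The lowest level of all cells, 45.6 RPM, was that of IL01_Pool3, with an Eno2 share of 99.3% and 68.8% hemoglobin reads. In IL05_Pool5, with a share of 57.1%, Snap25 was at 67.5 RPM. Over the 46 cells with enough reads on the pair, however, the Eno2 share did not rise with the summed neuron list. Its rho with that list was −0.19 (r −0.03), with −0.58 to −0.02 within the pools.

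Markers of other cells were also found in the 9 cells. At least 2 markers reached 10 RPM in 7 of the 9 for astrocytes, against 30 of the 37 cells with more Eno2, in 4 against 11 for the oligodendrocyte lineage, in 3 against 6 for microglia, in 6 against 27 for excitatory and in 5 against 11 for inhibitory neurons. The summed level of the oligodendrocyte lineage ran from 0 in IL04_Pool4 to 3402 RPM in IL02_Pool2, the highest of all cells, with a median of 145 RPM, against 0 to 1771 RPM with a median of 60.5 RPM in the cells with more Eno2. It was also high in IL03_Pool2 (1035 RPM), IL05_Pool1 (652 RPM) and IL03_Pool5 (616 RPM). Among cells with more Eno2, it was high in IL03_Pool1 (1771 RPM), IL03_Pool4 (748 RPM) and IL09_Pool4 (673 RPM). Astrocyte markers ran from 68.8 to 4277 RPM (median 712 RPM) against 23.8 to 8163 RPM (median 317 RPM), and microglia markers from 0 to 2221 RPM (median 7.21 RPM) against 0 to 3210 RPM (median 3.97 RPM). Over the 46 cells, the Eno2 share had a rho of −0.06 with the oligodendrocyte lineage list (−0.48 to 0.38 within the pools). It was −0.06 with the astrocyte list (−0.57 to 0.21) and −0.09 with the microglia list (−0.19 to 0.27). The part of RNA from other cells in the share was not tested. Hemoglobin reads stayed below 1% in all 9. At the other end, IL01_Pool3 had 288 reads of Eno2 and 2 of Eno1, and IL09_Pool1 had 125 and 3 (97.7%).

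**Figure D2:**
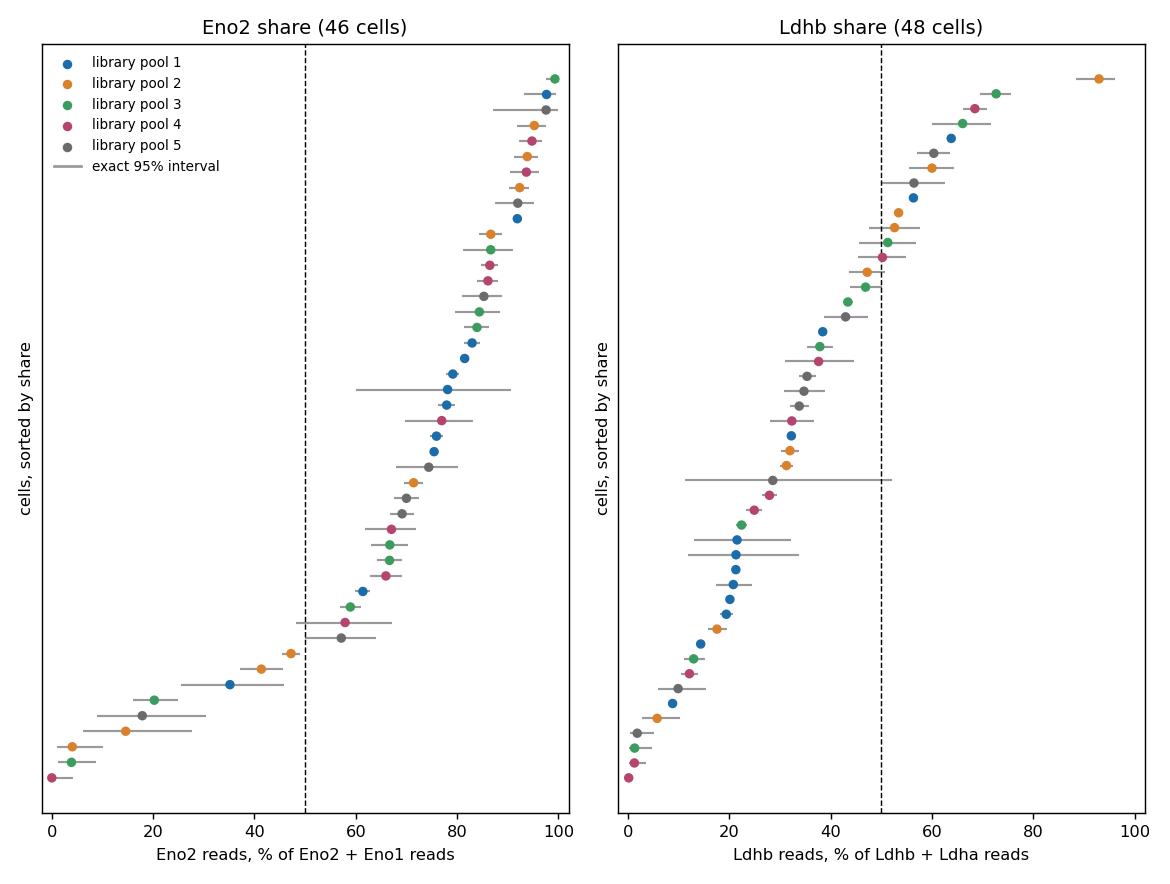
Share of Eno2 in the reads of Eno2 and Eno1 (left, 46 cells) and of Ldhb in the reads of Ldhb and Ldha (right, 48 cells), in percent, 1 point per cell sorted by share and coloured by library pool, with exact 95% intervals as lines and 50% dashed. Of the cells, 37 lie above 50% for Eno2 and 13 for Ldhb.

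The lactate dehydrogenase pair leaned to the muscle-type subunit by reads. In the 48 cells with at least 20 reads on the pair, Ldhb made up a median of 32.3% of the reads of Ldha and Ldhb together (quartiles 19.9% and 50.5%, SD 21.4). Ldhb had more reads than Ldha in 13 cells (27.1%, interval 15.3% to 41.8%), and the interval of the share lay wholly above 50% in 10 cells, wholly below in 32 and on both sides in 6. The pool medians ran from 21.3% to 47.2%. Of the 8 cells with at least 1% hemoglobin reads, 4 had more Ldhb, against 9 of the other 40 cells. Among those 4, IL01_Pool3 (161 reads of Ldhb and 153 of Ldha) and IL01_Pool4 (224 and 222) had intervals on both sides of 50%. The rho of the Ldhb share with hemoglobin was 0.07 over the 48 cells (−0.20 to 0.60 within the pools). Per kb of exonic length, which is 1570 bases for Ldhb and 3310 for Ldha, the median share was 50.1% and 25 cells had more Ldhb, so that which subunit leads depends on the scale.

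Single cells covered nearly the full range of the share. IL09_Pool4 had 1 read of Ldhb and 739 of Ldha (0.135%), IL04_Pool4 had 3 and 236 (1.26%), IL09_Pool3 had 2 and 151 (1.31%) and IL01_Pool5 had 3 and 162 (1.82%). At the opposite end, IL07_Pool2 had 185 reads of Ldhb and 14 of Ldha (93.0%, interval 88.5% to 96.1%), followed by IL07_Pool3 with 622 and 234 (72.7%) and IL05_Pool4 with 1018 and 469 (68.5%). In 3 cells extremes of different genes met. IL09_Pool4 had the highest Ldha and the lowest Ldhb level of all cells, IL04_Pool4 the highest Eno1 and the lowest Eno2 level, and IL07_Pool2 the highest Eno2 and the lowest Ldha level.

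The 2 shares had little relation to each other. Over the 46 cells with enough reads on both pairs, rho was 0.14 and r was 0.09 (0.12 without the 2 cells farthest from the median), with −0.13 to 0.60 within the pools. More Eno2 went with more Ldha in 26 cells and with more Ldhb in 11, while cells without more Eno2 had more Ldha in 7 cases and more Ldhb in 2. With log10 reads per cell, rho was −0.02 for the Eno2 share and 0.04 for the Ldhb share. The Ldhb share moved with the microglia marker list (rho 0.45, r 0.36 and 0.34 without the 2 farthest cells, above 0 in 4 of 5 pools and from −0.43 to 0.78) and Ldha against it (rho −0.51, −0.65 to −0.10 within the pools). Ldha also went against the mitochondrial reads (rho −0.44, below 0 in all 5 pools) and with the neuron marker list (rho 0.41, above 0 in all 5 pools, with r 0.18 and 0.44 without the 2 farthest cells). The Ldhb share went with the mitochondrial reads (rho 0.27, above 0 in all 5 pools) and against the neuron list (rho −0.31, above 0 in 1 of 5 pools). The summed level of the 4 listed microglia markers ran from 0 to 3210 RPM with a median of 5.84 RPM, and was 0 in 5 cells. It passed the count of 2 markers at 10 RPM in 4 of the 13 cells with more Ldhb, and in 9 of all 49 cells. Ldha also had a rho of 0.47 with log10 reads per cell (−0.23 to 0.90 within the pools). The part of microglial RNA and of the other measures in the Ldhb share, and of depth in the relations of Ldha, was not tested.

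Between cells, the members moved together only weakly. The correlations are descriptions over the 49 cells, which share library pools and differ in depth. The 21 pairs of members had a median rho of 0.28 (−0.10 to 0.55), and 19 pairs were above 0. The median rho of a member with one of the 7262 other genes found in at least 25 cells was 0.09. Of these 50834 pairs, 35362 were above 0. The other genes were not matched to the members in level or in the number of cells with a read. The median over pairs was 0.08 to 0.25 within the pools and 0.19 without the 8 cells with at least 1% hemoglobin reads.

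Ldha and Eno1 formed the highest pair (rho 0.55, r 0.56 and 0.55 without the 2 cells farthest from the median). Within pools it had a rho of 0.58 in pool 1, 0.68 in pools 2 and 3, 0.70 in pool 4 and 0.72 in pool 5. Ldha and Tpi1 followed with a rho of 0.54 but ranged from −0.10 to 0.83 within the pools, and both moved with depth (rho 0.47 for Ldha). Aldoa and Eno1 had a rho of 0.43. Ldha and Ldhb, the subunits of 1 enzyme, had a rho of 0.23.

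**Figure D3:**
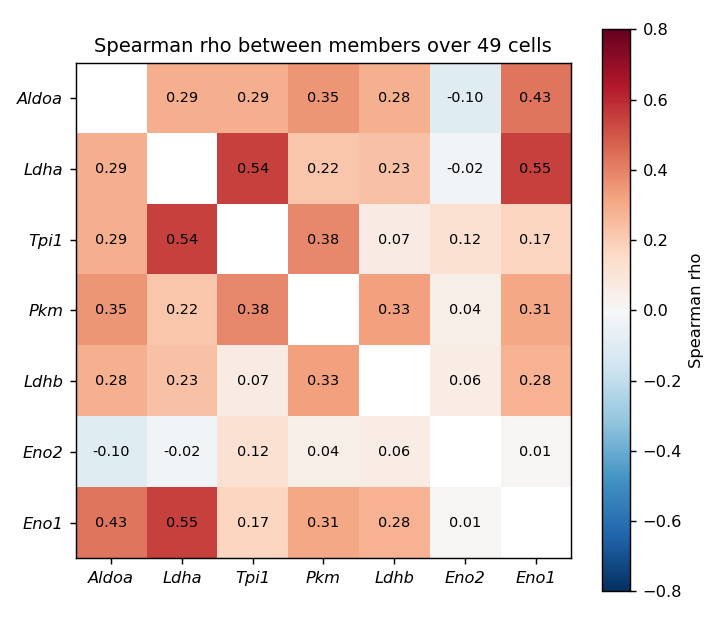
Spearman's rho of each pair of members over the 49 cells, from blue (below 0) through white to red (above 0). The highest values are 0.55 for Ldha with Eno1 and 0.54 for Ldha with Tpi1, and the Eno2 row lies between −0.10 and 0.12.

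Eno2 had the lowest correlations within the group. Its median rho with the other 6 members was 0.03 (−0.10 to 0.12), the same as with the other genes (0.03), while the medians of the other members ranged from 0.23 to 0.32. With its own isoform partner Eno1 the rho was 0.01 over all cells, but this value hides opposite signs, with 0.68 in pool 1 and 0.65 in pool 5 against −0.58, −0.53 and −0.50 in pools 2, 3 and 4. The rho of Eno2 with the neuron marker list was 0.07 and with depth 0.15.

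**Figure D4:**
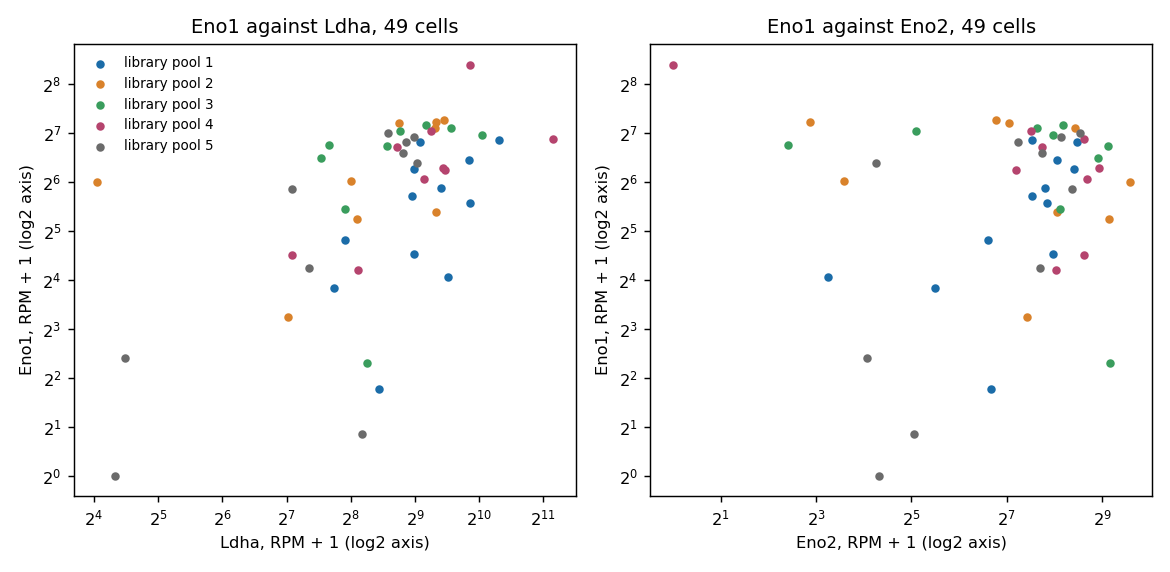
Eno1 level against Ldha (left) and against Eno2 (right) in the 49 cells, as RPM + 1 on log2 axes, coloured by library pool. Eno1 and Ldha tend to be high in the same cells (rho 0.55), and for Eno1 and Eno2 rho is 0.01.

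Among genes with a read in at least 25 cells, those most like the summed level of the members were Dynlrb1 (rho 0.75), Ppp2r1a (0.74), Ndufa8 (0.72), Mif (0.71) and Ndufa11 (0.71). The genes most like each isoform differed, being Tma7 and Pomp for Eno1 (rho 0.70 for each), Slc4a10 (0.57) and Hist3h2a (0.55) for Eno2, Tuba1a (0.69) and Ywhaz (0.68) for Ldha, and Gm15920 (0.63) and Commd9 (0.58) for Ldhb. These are the highest of 7269 genes over 49 cells and carry no test.

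Of 38 further genes of glucose metabolism, 28 are listed, and 11 of these had a median of at least 100 RPM. For the upper steps of glycolysis, reads fell mostly on 1 or 2 of the listed isoforms. Hk1, the hexokinase that predominates in brain, had a median of 109 RPM and reads in 47 cells, while Hk2 had a median of 0 and reads in 20 cells. Gpi1, glucose phosphate isomerase, had a median of 202 RPM and was found in 49 cells. Of the phosphofructokinase isoforms, the platelet-type Pfkp had a median of 292 RPM and the muscle-type Pfkm of 135 RPM, whereas the liver-type Pfkl had a median of 4.71 RPM. Per kb of exonic length the order of Pfkp and Pfkm turned, with 40.4 RPM per kb for Pfkm and 21.8 for Pfkp, against 0.705 for Pfkl. The neuronal glucose transporter Slc2a3 was found in 41 cells with a median of 6.30 RPM, and Slc2a1, the transporter of vessels and glia, in 18 cells with a median of 0. Aldoc, the aldolase that is most abundant in astrocytes, had a median of 14.2 RPM against 773 RPM for Aldoa (4.36 against 265 RPM per kb) and reached 848 RPM in IL05_Pool1.

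Mpc2 and the listed subunits of pyruvate dehydrogenase, on the way of pyruvate into the mitochondrial cycle, had higher medians than the lactate transporter genes, in RPM and per kb of exonic length. Mpc2, a subunit of the mitochondrial pyruvate carrier, had a median of 578 RPM, and the pyruvate dehydrogenase subunits Pdha1, Pdhb and Dlat had medians of 224, 132 and 75 RPM. The inhibiting kinases Pdk1 and Pdk3 had medians below 1 RPM. The lactate transporter genes Slc16a7 and Slc16a1 had medians of 14.1 and 0.237 RPM (1.19 and 0.0535 RPM per kb), where Mpc2, Pdha1, Pdhb and Dlat had 78.8, 59.9, 34.3 and 15.3 RPM per kb. The malate dehydrogenases Mdh1 (979 RPM, cytosolic) and Mdh2 (806 RPM, mitochondrial), which move reducing equivalents into mitochondria, had higher medians in RPM than each of the 7 members. Per kb of exonic length, Mdh1 (381 RPM per kb) stayed above Aldoa, while Mdh2 (226) fell below it. Of the 28 genes, Mdh1 and Mdh2 had the highest rho with the summed level of the members (0.59 for each). Ckb, the brain creatine kinase, had a median of 688 RPM and never fell below 101 RPM.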

How the data were processed

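Patchseq cDNA of the 49 cells was made with the SMART-Seq v4 3′ DE kit, without molecular identifiers, and Nextera XT. The authors aligned single-end reads to GRCm38 (mm10) with STAR, counted them with HTSeq and deposited RPM per gene and cell, not log transformed. Versions and annotation are not given in the sources used here. Whole reads were recovered by dividing RPM by the value of 1 read in that cell, with 100% of nonzero entries inside a tolerance of 0.01 reads. Those reads gave detection, isoform shares and depth (209850 to 35342325 reads per cell), and RPM gave levels. The pseudocount on the log2 scale was 1. No count test was run, as there is 1 condition. On simulated cells (9020 genes, 49 cells) 100% of values and 100% of 200 planted genes were recovered. The planted genes were drawn from those with the highest mean level and shared a strong factor. The simulation therefore checks the steps, and not whether weak correlations or low levels would be found.

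The members, marker lists and other gene lists were chosen with earlier results of these data known. Named genes are the members, the listed genes of the pathway and marker lists, copies of members, the 5 genes with the highest rho to the summed members and the 2 with the highest rho to each of Eno1, Eno2, Ldha and Ldhb. Lengths, coordinates and overlaps come from GENCODE M21, where 8835 of the 9020 symbols matched, and promoters from RefSeq, where all 7 members matched. Alternatives changed the denominator (reads outside hemoglobin genes, nuclear reads, edgeR's TMM), the length scale, the read minimum, the pseudocount and the depth, with 44 cells thinned to 358412 reads. Each pool was left out in turn. Further alternatives were chosen after seeing the data. They are a correction for copies, leaving out the 8 cells with at least 1% hemoglobin reads, and more settings for the counts in every cell and the correlations. Software was R 4.3.3 with edgeR 4.0.16 and Python 3.11.15 with scipy 1.17.1, pandas 2.3.3, numpy 2.4.6 and matplotlib 3.10.9.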

Additional observations from a re-analysis of the deposited data

How the results depend on the processing

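The number of members found in every cell was 5 at 1 read, 1 at 10 reads, 3 at 10 RPM and 5 to 6 when each library pool was left out in turn. The order by median kept 3 of 7 places per kb of exonic length and 3 to 7 places without each pool, with 3 without pool 3 and 4 without pool 4. Per kb, 25 cells had more Ldhb than Ldha, in place of 13. The median rho over pairs of members was 0.28 with RPM, 0.35 with edgeR's TMM, 0.198 and 0.1998 as Pearson's r on the log2 scale with pseudocounts of 0.1 and 1, 0.189 without the cells with at least 1% hemoglobin reads, and 0.17 to 0.26 without each pool, lowest without pool 5. The median rho of members with other genes was 0.09, and 0.14 with TMM. The cause of these shifts was not tested.

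The other 90 alternatives stayed within 1 SD (over cells, or over pools for a correlation) of the value, or within 1.5 times the count. The SD over cells is a loose limit for a median, at 27.3 points for the Eno2 share and 21.4 for the Ldhb share. Alternatives within it include a median Ldhb share of 50.1% per kb, in place of 32.3%. They also include a median Eno2 share of 62.6% with the correction for copies, in place of 76.4%. Without each pool, the median Eno2 share was 71.4% to 77.5%, the median Ldhb share 32% to 35% and the summed level 2712 to 3155 RPM. Reads on copies of Eno1 and Ldhb could not be added, since no copy is among the listed genes. No paired analysis was possible because a single condition was sampled. In the shallowest cell, a count of 0 reads allows levels up to 14.3 RPM if each read is an independent draw, and higher ones if RNA was lost before sequencing.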

Other observations

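Bpgm, which encodes the bisphosphoglycerate mutase that is most abundant in red blood cells, had a median of 6.17 RPM and its highest level, 2778 RPM, in IL01_Pool3, the cell with 68.8% hemoglobin reads. It was at 0 in IL03_Pool4, which had 21.6% hemoglobin reads, and at 5.45 RPM in IL01_Pool4, which had 11.6%, so high hemoglobin did not always go with high Bpgm (rho 0.23 over 49 cells, −0.21 to 0.62 within the pools). Hk2 and Slc2a3 were both highest in IL04_Pool4, at 653 and 389 RPM, the cell with the highest Eno1 and no Eno2 reads, and Mdh2 (2062 RPM) was highest there too. That cell was shallow (254182 reads), and Got1, Got2 and Ckmt1 were at 0 in it, where 0 reads allow up to 11.8 RPM. Aldoc had a rho of 0.27 with the other astrocyte markers (0.19 to 0.62 within the pools).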
